A study of Homo sapiens with 6 samples.

Results

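The mRNA levels of 8 secreted proteins of the TGF-beta superfamily and their binding proteins were examined in HK-2 cells with and without OX-LDL stimulation. The 8 genes were GDF15, the activin and inhibin subunits INHBE, INHBA and INHBB, the follistatins FST and FSTL3, and the bone morphogenetic proteins BMP2 and BMP4. They were taken by name from a table of 58825 genes and had been selected on their measured values in the same comparison of OX-LDL with Control libraries that is described here. Their differences between the groups are therefore given as a description, with no p-value, and the choice had no threshold. Of the 8 genes, 6 reached the mean of at least 0.1 FPKM (sequenced fragments per kilobase of a transcript at a common library size, so that levels of genes are compared per length) that was required of the 19510 genes tested, and INHBB and FST did not.

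HK-2 cells are human kidney proximal tubular epithelial cells that were immortalized. OX-LDL is the oxidized form of low-density lipoprotein, the main carrier of cholesterol in blood. The Control group held 3 libraries of HK-2 cells described as untreated, and the OX-LDL group held 3 libraries of HK-2 cells that had received OX-LDL at 25 μg/ml and were harvested after 48 h. No harvest time is given for the Control libraries. All 6 libraries came from the same line, and the methods describe a period in low-serum medium before OX-LDL was added. The comparison addressed how lipid overload changes gene expression in tubular cells. The methods state that in vitro experiments were performed independently, but no label ties a library to a culture, so p-values measure the spread between these libraries only.

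Ligands of the superfamily are made as precursors, are cut by proteases and are secreted as dimers. Activins are dimers of inhibin beta subunits and act through type II and type I receptors on SMAD2 and SMAD3, whereas BMPs act mainly on SMAD1, SMAD5 and SMAD9 and raise the transcription of the ID genes. Follistatin and follistatin-like 3 bind activins and keep them from their receptors. GDF15 is a distant member of the family that is secreted by stressed cells, signals through GFRAL with RET in the brainstem and is released by injured kidney tubules.

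Total deposited counts ranged from 62561347 to 76797607 per library. An excess of genes at exactly 4, 8 and 12 counts showed that a read pair added about 4 counts, so the libraries held about 15640337 to 19199402 read pairs. A gene with at most 12 counts in a library, which is 3 read pairs, was taken as not detectable there. This limit covers counting error only, since the libraries carry no molecular identifiers. Each library was distinct, as the chi-square per gene between libraries of a group was 15.7 to 27.3, far above a value near 1. Of 5 epithelial markers, 4 averaged 1 FPKM or more, and CDH1, which encodes E-cadherin, lay between 0.0276 and 0.144 FPKM. Of 4 renal markers, 3 averaged 1 FPKM or more, PAX8 and CDH6 among them. Defining markers of the mature proximal tubule were absent or nearly so, with 5 of 6 under 0.1 FPKM and LRP2 at 0 counts in all libraries, so the label of a proximal tubular cell was not borne out by these markers. The remaining proximal tubule marker, GGT1, was at 18.2, 0.0518 and 22.6 FPKM in Control against 0.0658, 0 and 0.0323 FPKM in OX-LDL. The renal transcription factor PAX8 was at 32.6 to 58.0 FPKM in Control against 16.3 to 24.2 FPKM in OX-LDL, while the summed renal markers overlapped at 58.7 to 82.8 and 61.9 to 73.7 FPKM. The summed level of the epithelial markers was 121 to 145 FPKM in Control against 174 to 224 FPKM in OX-LDL libraries. The keratins KRT8, KRT18 and KRT19 were each higher in every OX-LDL library than in every Control library. EPCAM overlapped, at 48.6 to 55.4 FPKM in Control against 51.2 to 56.7 FPKM in OX-LDL, and so did CDH1. Endothelial markers were all under 0.1 FPKM, the leukocyte marker PTPRC was at 0 in 5 libraries and DCN of fibroblasts at 0 in all 6. Of the 7 fibroblast markers, LUM alone averaged 1 FPKM or more, at 9.38 to 11.5 FPKM in Control against 8.06 to 13.1 FPKM in OX-LDL, and 5 were under 0.1 FPKM. CD68, which is a lysosomal protein as well as a macrophage marker, was at 2.77, 5.31 and 7.56 FPKM in Control and at 13.6, 8.91 and 9.91 FPKM in OX-LDL. The part of these marker shifts in the results below was not tested. In bulk RNA, fewer cells that express a gene and less RNA per cell cannot be told apart.

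GDF15 and INHBE were the most abundant of the 8 mRNAs in Control cells and were both much lower after OX-LDL stimulation. BMP2 was also lower, whereas INHBA, FSTL3 and BMP4 overlapped between the groups. Of the 6 members tested, 3 passed an adjusted p of 0.05 (edgeR's quasi-likelihood test, Benjamini-Hochberg over all genes), each of them lower in OX-LDL and beyond a 2-fold difference. Over all 19510 genes, 15.3% were called, 7.42% as lower and 7.91% as higher. Because the members were chosen by these values, nothing is read from their share. The OX-LDL and Control libraries did not overlap in FPKM for 3 of the 6 members, and for 37.2% of all genes tested.

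**Figure D1:**
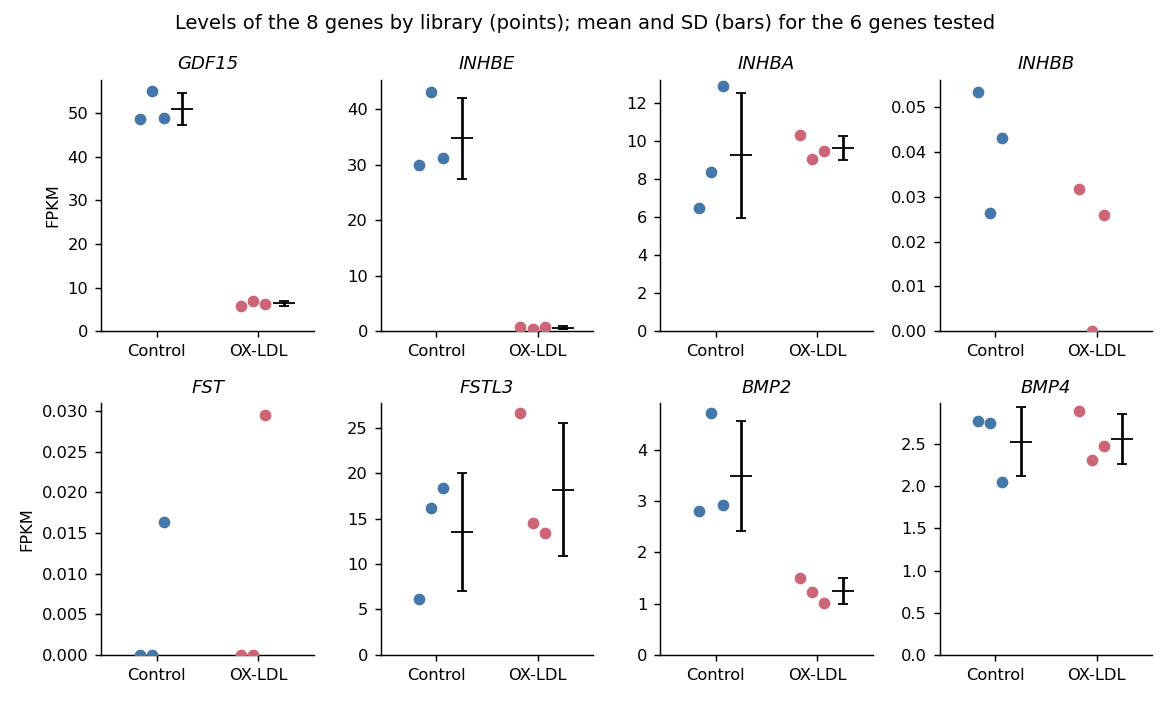
Levels (FPKM, linear axes that start at 0) of the 8 genes in the 3 Control and 3 OX-LDL libraries, 1 point a library, with the group mean and SD as bars for the 6 genes tested. GDF15, INHBE and BMP2 do not overlap between the groups, INHBA, FSTL3 and BMP4 do, and INHBB and FST stay below 0.1 FPKM.

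GDF15 (growth differentiation factor 15, ENSG00000130513) lies on the plus strand of chromosome 19 at chr19:18374731-18389176 of GRCh38. Its level was 48.7, 55.1 and 48.9 FPKM in the Control libraries and 5.81, 6.97 and 6.30 FPKM in the OX-LDL libraries. Every OX-LDL library was far below every Control library, and the libraries of each group lay close together. The group means were 50.9 ± 3.67 FPKM (SD, n = 3) and 6.36 ± 0.585 FPKM (SD, n = 3). The fitted log2 fold change of OX-LDL over Control was -2.97 with a standard error of 0.10, which is 7.81-fold lower, and ranged from -3.04 to -2.90 when each library was left out in turn. In Control, GDF15 stood above 96.8 to 97.2% of the genes tested in FPKM, and in OX-LDL above 70.0 to 73.6%. The fitted log2 fold change was lower still in 125 of the 19510 genes, and 21 of these genes averaged 1 FPKM or more.

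The sequence before the GDF15 start is shown because GDF15 was the most abundant member in Control and a core promoter element could be located in it. The windows are from RefSeq on GRCh38.p14 and span 250 bases before to 50 bases after an annotated start, with 35116 such windows over all genes. For 6 of the 8 members there was a window, 8 windows in all, and INHBE and BMP2 had none. Capitals mark the letters TATAAA, the core of a TATA box, on the strand of the gene or, as TTTATA, on the opposite strand. The letters were found in GDF15, FSTL3 and INHBA and in none of the other members' windows, and they were in 11.5% of all windows. The 250 bases before the GDF15 start are at chr19:18385908-18386157 on the plus strand, inside the longer span that the deposited table gives the gene.
GDF15: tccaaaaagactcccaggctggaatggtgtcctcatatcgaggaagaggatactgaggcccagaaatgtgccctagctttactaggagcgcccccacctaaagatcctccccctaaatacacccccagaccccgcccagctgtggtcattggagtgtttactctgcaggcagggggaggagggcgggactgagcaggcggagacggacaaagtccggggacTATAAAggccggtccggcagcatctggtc
The 100 bases before the FSTL3 start are at chr19:676292-676391 on the plus strand.
FSTL3: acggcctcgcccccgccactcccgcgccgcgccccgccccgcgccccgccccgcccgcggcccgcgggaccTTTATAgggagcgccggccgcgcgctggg
The 100 bases before the INHBA start are at chr7:41703091-41703190 on the minus strand, and are written along the gene.
INHBA: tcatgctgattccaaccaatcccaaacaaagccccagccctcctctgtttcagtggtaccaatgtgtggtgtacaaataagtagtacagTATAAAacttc
Counted from the start, the motif began at position -29 in GDF15 and FSTL3 and at position -11 in INHBA. The letters TGATGNAA, a composite site of ATF4 with a C/EBP protein, were in none of the 8 windows and in 3.62% of all windows. TGACGTCA, the cAMP response element, was also in none and in 1.85% of all windows. GCGTGGG, a site of EGR1, was in a window of BMP4, at position -198 on the opposite strand, and in 6.98% of all windows. Both strands were searched, and none of the 4 motifs contains another. A match is a stretch of letters and not a measured site, and the absence of a match holds only for this window.

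INHBE (inhibin subunit beta E, ENSG00000139269) encodes the subunit of activin E, a hepatokine known mainly from liver. It lies on the plus strand at chr12:57452323-57459280. INHBE was at 30.0, 43.2 and 31.2 FPKM in Control and at 0.767, 0.338 and 0.796 FPKM in OX-LDL. All OX-LDL libraries were below 1 FPKM, although each still held 95 to 220 counts, which is well above the detection limit of 12 counts. The means were 34.8 ± 7.29 FPKM (SD, n = 3) in Control and 0.634 ± 0.257 FPKM (SD, n = 3) in OX-LDL. The fitted log2 fold change was -5.74 with a standard error of 0.36, which is 53.5-fold lower, and ranged from -5.95 to -5.44 with a library left out. INHBE stood above 94.1 to 96.2% of the genes tested in Control and above 22.2 to 34.5% in OX-LDL. In the fit across all genes, 41 had a lower log2 fold change than INHBE, and 3 of these averaged 1 FPKM or more.

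INHBA (inhibin subunit beta A, ENSG00000122641, chr7:41667168-41705335, minus strand) encodes the subunit of activin A, a known driver of fibrosis and inflammation. Its level was 6.45, 8.38 and 12.9 FPKM in Control against 10.3, 9.03 and 9.49 FPKM in OX-LDL. The OX-LDL libraries all lay inside the range of the Control libraries. The means were 9.23 ± 3.29 FPKM (SD, n = 3) and 9.60 ± 0.631 FPKM (SD, n = 3), and the fitted log2 fold change of 0.09 had a standard error of 0.23. Its sign turned with the libraries used, from -0.11 to 0.41 with a library left out. INHBB (inhibin subunit beta B, ENSG00000163083, chr2:120346136-120351803, plus strand), the subunit of activin B, was barely detected, with 16, 8 and 12 counts in Control against 8, 0 and 8 counts in OX-LDL, and no fold change is given. INHBC, which adjoins INHBE and encodes the related beta C subunit, had 46, 27 and 36 counts in Control against 12, 30 and 8 counts in OX-LDL. INHA, the alpha subunit that turns an activin into an inhibin, was at 0.0815, 0.146 and 0.196 FPKM in Control and at 0.0320, 0.0990 and 0.149 FPKM in OX-LDL, and it was not called (adjusted p = 0.648, edgeR). The beta subunit mRNAs of HK-2 cells were therefore nearly all INHBE and INHBA. The ratio of INHBE to INHBA in FPKM was 4.66, 5.15 and 2.42 in Control and 0.0746, 0.0374 and 0.0840 in OX-LDL. INHBE exceeded INHBA in every Control library and was below it in every OX-LDL library.

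FSTL3 (follistatin-like 3, ENSG00000070404, chr19:676392-683392, plus strand), the secreted antagonist of activins, was at 6.19, 16.2 and 18.3 FPKM in Control and at 26.7, 14.5 and 13.4 FPKM in OX-LDL. The groups overlapped, and Control replicate 1 and OX-LDL replicate 1 lay apart from the others of their group, on opposite sides. The means were 13.6 ± 6.48 FPKM (SD, n = 3) and 18.2 ± 7.35 FPKM (SD, n = 3), with a fitted log2 fold change of 0.46 and a standard error of 0.43. Without 1 library, the log2 fold change ran from 0.08 to 0.74. FST (follistatin, ENSG00000134363, chr5:53480626-53487134, plus strand) had 0, 0 and 4 counts in Control against 0, 0 and 8 counts in OX-LDL, which is under the detection limit in all 6 libraries. The follistatin mRNA that could be measured in these cells was thus FSTL3. The ratio of FSTL3 to INHBA was 0.960, 1.93 and 1.43 in Control and 2.59, 1.61 and 1.42 in OX-LDL, and the groups overlapped.

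BMP2 (bone morphogenetic protein 2, ENSG00000125845, chr20:6767686-6780246, plus strand) is a ligand of the BMP branch that drives bone formation and is made by many epithelia. It was at 2.82, 4.72 and 2.92 FPKM in Control and at 1.51, 1.22 and 1.02 FPKM in OX-LDL. The highest OX-LDL library was below the lowest Control library. The means were 3.49 ± 1.07 FPKM (SD, n = 3) and 1.25 ± 0.246 FPKM (SD, n = 3). The fitted log2 fold change was -1.45 with a standard error of 0.25, which is 2.73-fold lower, and it ranged from -1.60 to -1.18 with a library left out. In the fit, 604 genes had a lower log2 fold change. BMP4 (bone morphogenetic protein 4, ENSG00000125378, chr14:53949736-53958761, minus strand), a close relative of BMP2 that binds the same receptors, was at 2.78, 2.75 and 2.06 FPKM in Control and at 2.89, 2.31 and 2.48 FPKM in OX-LDL. The BMP4 groups overlapped, with means of 2.53 ± 0.411 FPKM and 2.56 ± 0.299 FPKM (SD, n = 3 each). The fitted log2 fold change was 0.05 with a standard error of 0.17 and ran from -0.08 to 0.13 with a library left out. Each Control library held more BMP2 than BMP4, and each OX-LDL library held more BMP4 than BMP2.

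The order of the mean levels in Control was GDF15, INHBE, FSTL3, INHBA, BMP2 and BMP4, and the ranges of the neighbours FSTL3 and INHBA overlapped, while the lowest BMP2 library (2.82 FPKM) lay just above the highest BMP4 library (2.78 FPKM). In OX-LDL the order was FSTL3, INHBA, GDF15, BMP4, BMP2 and INHBE, and the ranges of neighbours in this order did not overlap. The summed level of the 8 mRNAs was 97.0, 130.4 and 116.3 FPKM in Control against 47.9, 34.4 and 33.6 FPKM in OX-LDL. GDF15 and INHBE together made up 81.1, 75.4 and 68.8% of this sum in Control and 13.7, 21.3 and 21.2% in OX-LDL. The share of FSTL3 was 6.38 to 15.8% in Control and 40.0 to 55.6% in OX-LDL, although its own level did not separate the groups. The share of INHBA was 6.43 to 11.1% in Control and 21.4 to 28.3% in OX-LDL. As shares of a sum, these values move with the lower levels of GDF15 and INHBE.

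**Figure D2:**
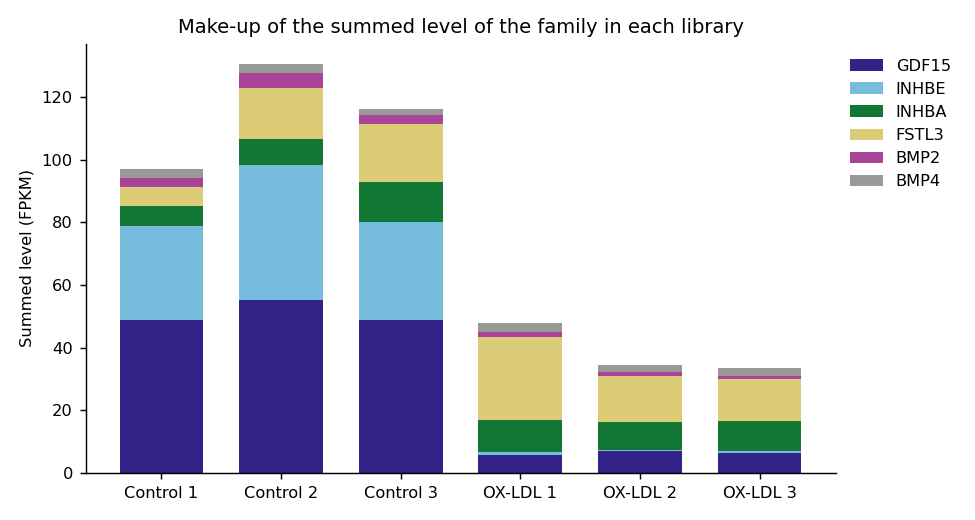
Summed level (FPKM, linear axis from 0) of the members in each library, with 1 bar a library divided by gene (INHBB and FST are too low to be drawn). The Control bars reach 97.0 to 130.4 FPKM and are mostly GDF15 and INHBE, and the OX-LDL bars reach 33.6 to 47.9 FPKM and are mostly FSTL3, INHBA and GDF15.

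The genes next to the members in the deposited coordinates were examined within 5000 bases. GLI1, a transcription factor of the Hedgehog pathway, begins 504 bases after INHBE on the same strand. GLI1 had 458, 547 and 460 counts in Control against 60, 161 and 110 counts in OX-LDL, and it fell by 2.12 on the log2 scale (SE 0.30, adjusted p = 0.00772, edgeR) and was called with any of the 6 libraries left out. Whether reads that run on from INHBE add to the counts of GLI1 was not tested. PGPEP1, a peptidase gene that ends 4780 bases before GDF15 on the same strand, had 2983, 3162 and 2423 counts in Control against 177, 1617 and 955 counts in OX-LDL. PGPEP1 had a log2 fold change of -1.65 (SE 0.61) and was not called (adjusted p = 0.121, edgeR), and OX-LDL replicate 1 held far fewer counts than the others. Without that library its log2 fold change was -1.18 and was called (adjusted p = 0.0465, edgeR), and without OX-LDL replicate 2 it was -2.31. Limma on log2(FPKM + 1) also called PGPEP1 (adjusted p = 0.0439). MIR3189, a microRNA gene inside GDF15 on the same strand, had 18, 8 and 20 counts in Control against 1, 5 and 2 counts in OX-LDL (adjusted p = 0.0817, edgeR), and its counts cannot be told apart from those of its host. INHBA-AS1, which overlaps INHBA on the opposite strand, had 13 to 69 counts in Control against 15 to 54 counts in OX-LDL. LRRC25, PRSS57 and MIR5580 had between 0 and 16 counts.

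Among the other ligands of the family, 7 of 24 genes were expressed at the level needed for the test, and 12 of the 17 others had at most 12 counts in every library. Of the 7, edgeR's quasi-likelihood test called 1, which was higher in OX-LDL, with a median log2 fold change of -0.34 against -0.0043 over all genes tested. The gene called was GDF6, also known as BMP13, a ligand of joints and the eye. GDF6 was at 0.779, 0.943 and 1.26 FPKM in Control and at 2.57, 2.62 and 2.34 FPKM in OX-LDL, with a log2 fold change of 1.37 (SE 0.20, adjusted p = 0.00830). Every OX-LDL library was above every Control library. BMP8B, with a log2 fold change of 0.24 (adjusted p = 0.128), and GDF11, with -0.37 (adjusted p = 0.188), were not called, and BMP8B has a close copy in BMP8A and overlaps other genes. Myostatin (MSTN), BMP3, BMP7, BMP10 and GDF2 were at 0 counts in every library.

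Of the secreted antagonists tested, 5 of 6 were more abundant per length than BMP2 and BMP4 in every library. Of 18 genes, 6 were tested, 3 were called higher and 1 lower, and the median log2 fold change was 0.52. CHRDL1 (chordin-like 1), which binds BMPs in the extracellular space, was at 32.0, 30.5 and 33.8 FPKM in Control and at 60.0, 65.0 and 63.9 FPKM in OX-LDL. The libraries of each group lay within a few FPKM of each other, and the log2 fold change was 1.00 (SE 0.08, adjusted p = 0.00125, edgeR). TWSG1 (twisted gastrulation), a partner of chordin, rose from 24.0, 18.7 and 21.2 FPKM to 35.0, 36.0 and 36.3 FPKM (log2 fold change 0.78, adjusted p = 0.00707, edgeR). NBL1 (DAN) was at 16.4, 17.9 and 13.8 FPKM in Control and at 31.4, 20.1 and 26.0 FPKM in OX-LDL (log2 fold change 0.72, adjusted p = 0.0351, edgeR). The call of NBL1 was kept with only OX-LDL replicate 2 left out and was lost without any other library, with an adjusted p of up to 0.103, and NBL1 shares its locus with MICOS10 on the same strand. GREM1 (gremlin 1), an inhibitor of BMP2 and BMP4 that is linked to kidney fibrosis, was the exception in direction among the genes called. Its level was 10.4, 10.2 and 9.88 FPKM in Control against 7.45, 7.85 and 7.49 FPKM in OX-LDL. GREM1 fell by 0.39 on the log2 scale (SE 0.07, adjusted p = 0.0126, edgeR), and without OX-LDL replicate 1 or 3 its adjusted p was 0.0527 or 0.0562. KCP, which was not called, also had a negative log2 fold change (-0.41, adjusted p = 0.249, edgeR). CRIM1, at 63.2 to 71.1 FPKM in Control against 74.8 to 88.0 FPKM in OX-LDL, was not called (adjusted p = 0.0556), and noggin (NOG) and chordin (CHRD) were close to the detection limit.

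Of 7 protease genes, 5 were tested, 2 were called higher and 1 lower. FURIN and PCSK7, which cut the precursors, had log2 fold changes of -0.09 (adjusted p = 0.540) and -0.35 (adjusted p = 0.169, edgeR) and were not called. The genes that were called belong to the tolloid family, which cleaves chordin and procollagens instead of the furin site of ligand precursors. BMP1 was at 6.03, 5.93 and 6.10 FPKM in Control and at 8.36, 9.16 and 8.12 FPKM in OX-LDL, with a log2 fold change of 0.54 (adjusted p = 0.00798, edgeR). Despite its name BMP1 is a protease and no BMP ligand. TLL1 was at 2.12, 2.15 and 2.24 FPKM in Control and at 0.723, 1.29 and 0.742 FPKM in OX-LDL and fell by 1.20 on the log2 scale (adjusted p = 0.0205, edgeR). TLL1 was called with only OX-LDL replicate 2 left out, and without any other library its adjusted p reached up to 0.0715. TLL2, named after its values had been seen, was at 0.0724 to 0.159 FPKM in Control against 0.241 to 0.449 FPKM in OX-LDL (log2 fold change 1.66, adjusted p = 0.0293, edgeR), and the call was kept with only Control replicate 1 or OX-LDL replicate 2 left out, with an adjusted p of up to 0.102 otherwise, and was lost under limma with each of 3 pseudocounts.

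Of 20 receptors and co-receptors for the family, 13 were expressed at the level needed for the test, 1 was called higher and 2 lower, and the median log2 fold change was -0.10. BAMBI, a decoy receptor without a kinase domain that dampens TGF-beta and BMP signals, was at 20.6, 19.1 and 16.9 FPKM in Control and at 8.62, 8.88 and 8.74 FPKM in OX-LDL. BAMBI fell by 1.08 on the log2 scale (SE 0.10, adjusted p = 0.00210, edgeR), and the OX-LDL libraries were nearly equal. ACVR1 (ALK2), a type I receptor, was at 15.0, 14.1 and 15.6 FPKM in Control and at 9.62, 11.4 and 9.17 FPKM in OX-LDL and fell by 0.53 on the log2 scale (adjusted p = 0.0203, edgeR). The call of ACVR1 was kept with only OX-LDL replicate 2 left out, and without any other library its adjusted p was up to 0.0746. ENG (endoglin), a co-receptor best known from endothelium, was at 0.991, 1.27 and 1.32 FPKM in Control and at 2.96, 2.12 and 2.83 FPKM in OX-LDL, with a log2 fold change of 1.17 (adjusted p = 0.0105, edgeR). The endothelial markers PECAM1, CDH5, VWF and KDR summed to at most 0.0957 FPKM in Control against 0.0246 FPKM in OX-LDL. The type II receptor BMPR2 (log2 fold change 0.24, adjusted p = 0.0811) and NEO1 (-0.26, adjusted p = 0.0531, edgeR) were not called. The GDF15 receptor GFRAL was at 0 counts in all 6 libraries, and its partner RET held 15 to 32 counts in Control against 21 to 40 counts in OX-LDL.

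Of 8 genes for SMAD transducers and their ubiquitin ligases, all 8 were tested and 1 was called. SMAD9, a transducer of BMP signals, was at 0.669, 0.389 and 0.603 FPKM in Control and at 1.52, 1.35 and 1.72 FPKM in OX-LDL, with a log2 fold change of 1.49 (SE 0.24, adjusted p = 0.0111, edgeR). SMAD5 (log2 fold change 0.19, adjusted p = 0.119), SMAD3 (0.17, adjusted p = 0.286) and the ubiquitin ligases SMURF1 (0.17, adjusted p = 0.138) and SMURF2 (0.46, adjusted p = 0.0648, edgeR) were not called.

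Among the genes listed as targets of BMP signalling, the 3 that were called rose and the 5 others tested were not called, while BMP2 was lower. The list does not hold BAMBI, which is given with the receptors and was lower (log2 fold change -1.08). Of 10 genes, 8 were tested and 3 were called, each of them higher, and the median log2 fold change was 0.37. The 3 genes were ID1, ID2 and ID3, which encode inhibitors of basic helix-loop-helix transcription factors and are induced by SMAD1, SMAD5 and SMAD9, though also by other signals. ID1 was at 29.3, 18.8 and 22.2 FPKM in Control and at 66.8, 60.0 and 63.3 FPKM in OX-LDL, with a log2 fold change of 1.46 (SE 0.17, adjusted p = 0.00423, edgeR). ID3 was at 14.0, 10.3 and 17.3 FPKM in Control and at 31.8, 38.5 and 35.9 FPKM in OX-LDL, with a log2 fold change of 1.38 (SE 0.20, adjusted p = 0.00772, edgeR). For both genes every OX-LDL library was above every Control library, and the call held with any library left out. ID2 was at 23.6, 19.8 and 31.4 FPKM in Control and at 40.9, 40.9 and 40.2 FPKM in OX-LDL (log2 fold change 0.73, adjusted p = 0.0289, edgeR). The call of ID2 was kept with only Control replicate 3 left out, and without any other library its adjusted p was up to 0.0850. The inhibitory SMADs, SMAD6 (0.29, adjusted p = 0.128) and SMAD7 (0.27, adjusted p = 0.127, edgeR), were not called. The 100 bases before the ID1 start (RefSeq, GRCh38.p14, chr20:31605189-31605288, plus strand) are shown beside those of GDF15, since both genes hold the TATAAA letters (capitals, on both strands and overlapping in ID1) and their levels differed between the groups in opposite directions.
ID1: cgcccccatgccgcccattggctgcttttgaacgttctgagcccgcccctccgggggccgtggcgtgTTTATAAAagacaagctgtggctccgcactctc

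**Figure D3:**
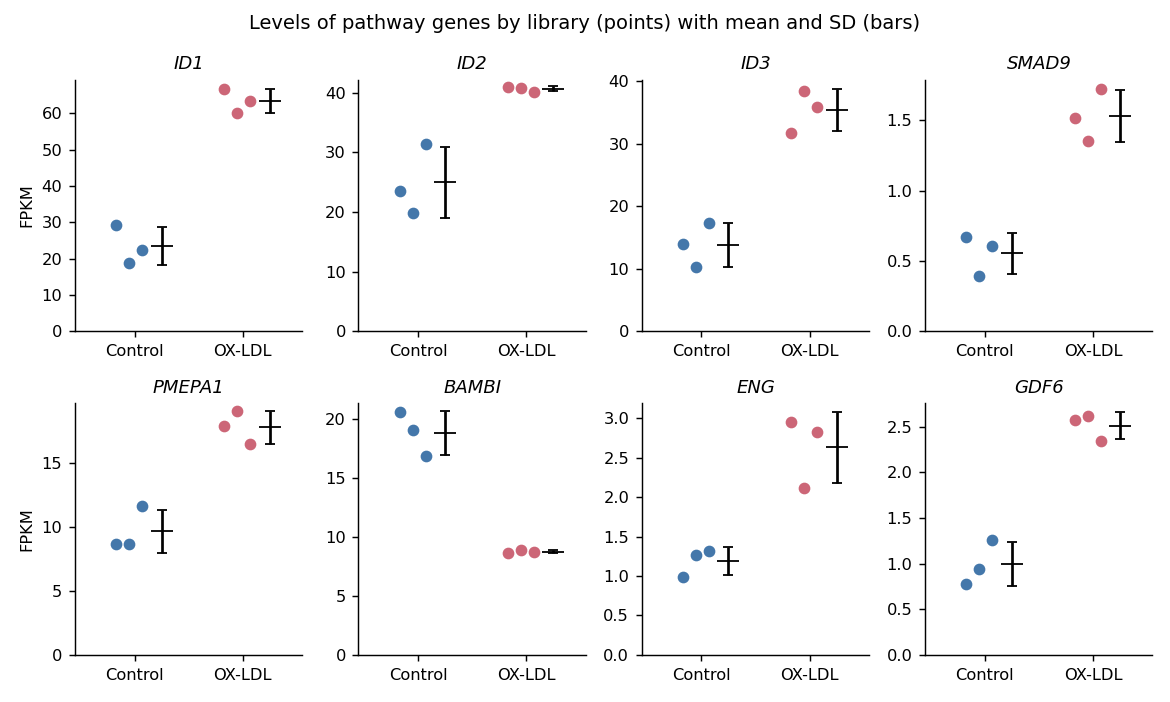
Levels (FPKM, linear axes that start at 0) of ID1, ID2, ID3, SMAD9, PMEPA1, BAMBI, ENG and GDF6 in the 3 Control and 3 OX-LDL libraries, 1 point a library, with the group mean and SD as bars. BAMBI lies lower in every OX-LDL library (8.62 to 8.88 FPKM) than in every Control library (16.9 to 20.6 FPKM), and the other genes lie higher.

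Of 6 target genes of activin and SMAD2/3 signalling, all were tested and 1 was called. PMEPA1, a feedback inhibitor of TGF-beta signalling, was at 8.67, 8.62 and 11.6 FPKM in Control and at 17.8, 19.0 and 16.4 FPKM in OX-LDL, with a log2 fold change of 0.91 (SE 0.13, adjusted p = 0.00842, edgeR). LTBP2 (0.66, adjusted p = 0.112), CCN2 (-0.19, adjusted p = 0.131) and TGIF1 (-0.26, adjusted p = 0.593, edgeR) were not called.

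Among the transcription factors and other stress genes listed for GDF15, those that were called were lower in OX-LDL. Of 8 genes, all were tested and 6 were called, each of them lower, and the median log2 fold change was -1.63. The list was chosen with earlier results of these data known, so its direction is no independent evidence. NUPR1, a stress cofactor of chromatin, was at 7.13, 8.50 and 6.92 FPKM in Control and at 0.273, 0.348 and 0.429 FPKM in OX-LDL and fell by 4.38 on the log2 scale (SE 0.20, adjusted p = 0.000209, edgeR). DDIT3 (CHOP), a factor of endoplasmic reticulum stress, was at 55.9, 123.1 and 76.6 FPKM in Control and at 11.9, 17.6 and 10.4 FPKM in OX-LDL and fell by 2.64 on the log2 scale (adjusted p = 0.00515, edgeR). DDIT3 overlaps MARS and MBD6 on the opposite strand. TRIB3, a pseudokinase induced by ATF4 and CHOP, fell by 2.39 on the log2 scale (adjusted p = 0.00237, edgeR), and ATF3 fell by 2.09 (adjusted p = 0.00840, edgeR). ATF4, the main factor of the integrated stress response, was at 144.5, 146.1 and 150.9 FPKM in Control and at 96.5, 88.3 and 102.6 FPKM in OX-LDL and fell by 0.59 on the log2 scale (SE 0.07, adjusted p = 0.00526, edgeR). CEBPB was the sixth gene called, with a log2 fold change of -1.17 (adjusted p = 0.0114, edgeR). EGR1 (0.49, adjusted p = 0.310, edgeR) was not called. In all, 61 of the 101 pathway genes were tested, 12 were called higher and 10 lower, 22 of 61 against 15.3% of all genes tested. All the lists were chosen with earlier results known, so nothing is read from this share.

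**Figure D4:**
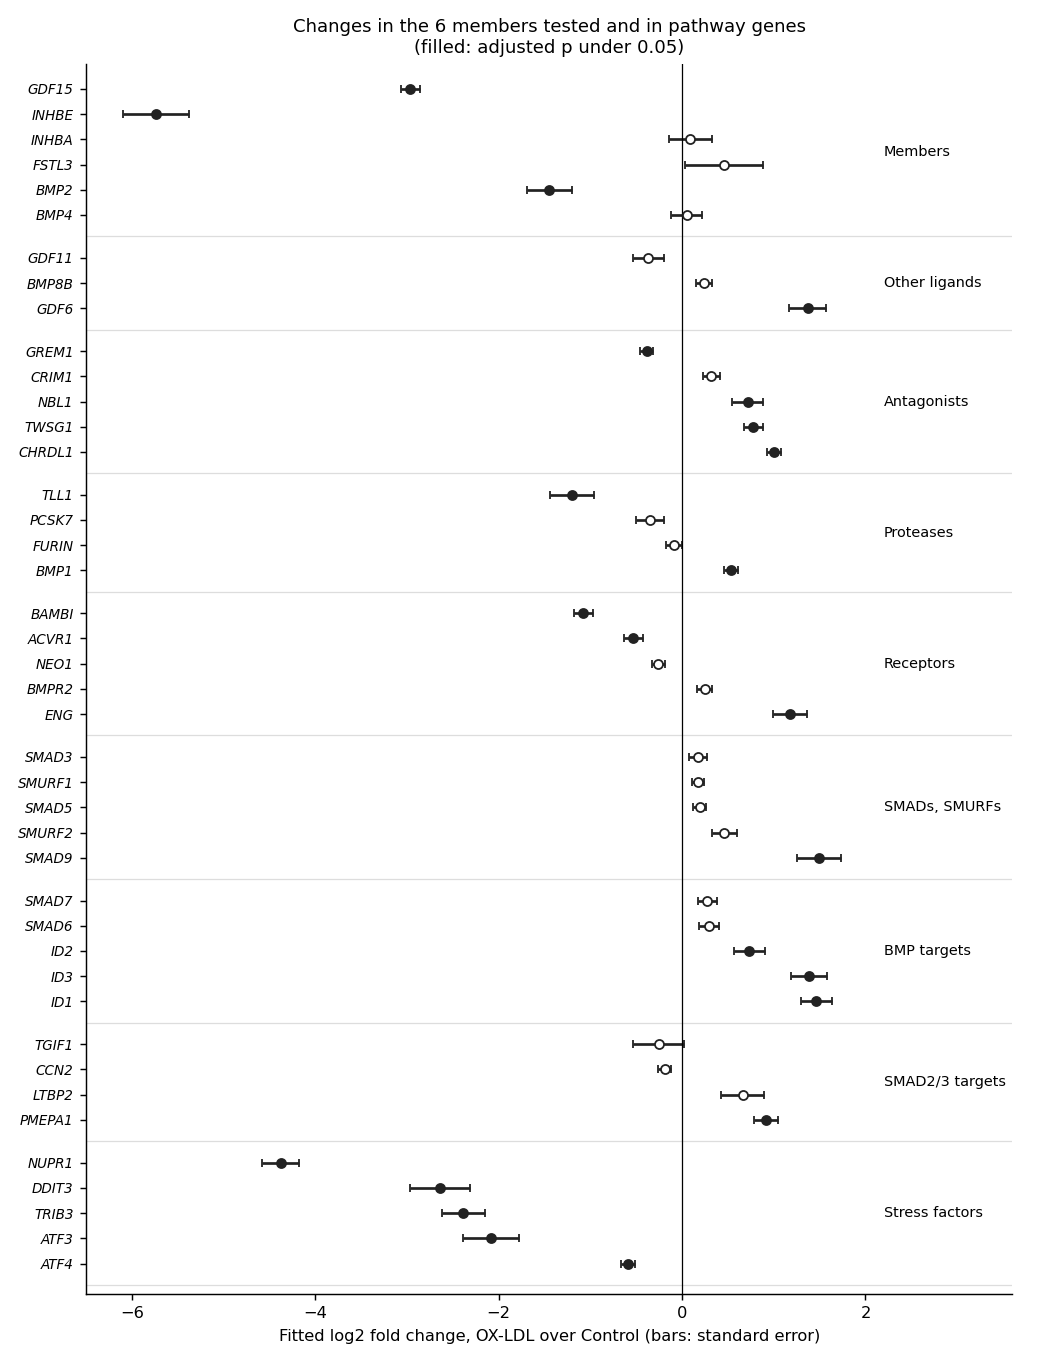
Fitted log2 fold change of OX-LDL over Control (points, with standard errors as bars) for the 6 members tested and for pathway genes, grouped by role, with filled points for an adjusted p under 0.05. For the members, which were chosen by these values, the fill is a description only. INHBE (-5.74), NUPR1 (-4.38) and GDF15 (-2.97) lie farthest to the left of the genes drawn, which all averaged 1 FPKM or more, and SMAD9 (1.49) and ID1 (1.46) farthest to the right.

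The genes whose profile over the 6 libraries was most like that of each member were sought over the 12259 genes that averaged 1 FPKM or more, by the root mean square difference of centred log2 CPM (counts scaled to library size). Closest to GDF15 were ARG2 (0.132), a mitochondrial arginase, DHRS3 (0.169), a retinal reductase, and CTH (0.221), the enzyme that makes cysteine from cystathionine. ARG2 was at 26.6 to 34.5 FPKM in Control and at 3.14 to 4.50 FPKM in OX-LDL. Closest to INHBE were the glycine transporter SLC6A9 (0.659), NUPR1 (0.833) and AC074091 (0.915). AC074091 was at 0 FPKM in every OX-LDL library and overlaps GPN1 and ZNF512 on the same strand. By this measure no gene was as near to INHBE as ARG2 was to GDF15. The measure also counts a gap in the size of the change (log2 fold change -4.66 for SLC6A9 and -5.74 for INHBE), so it does not compare pattern alone. SLC6A9 was at 3.46 to 3.73 FPKM in Control and at 0.113 to 0.147 FPKM in OX-LDL. The profile of INHBA was nearest to that of HSD17B8 (0.0583), that of FSTL3 to FGFRL1 (0.184), that of BMP2 to AC079140 (0.149) and that of BMP4 to SYT11 (0.0308). With 6 libraries, the small differences for INHBA and BMP4 belong to profiles that did not separate the groups. INHBA shares with HSD17B8 a rise over the Control libraries. These were at 6.45, 8.38 and 12.9 FPKM for INHBA and at 1.295, 1.587 and 2.563 FPKM for HSD17B8. The likeness for FSTL3 rests on the low value of Control replicate 1, which FGFRL1 shows as well (4.08 FPKM against 9.66 and 11.4 FPKM in the other Control libraries).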

How the data were processed

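Poly(A) RNA of 3 Control and 3 OX-LDL libraries was sequenced as read pairs, and samples were grouped by their labels. Per the submitters' processing notes, cutadapt 1.9, HISAT2 2.0.4, StringTie 1.3.4d and GRCh38 were used, and whether counting used the strand is not given in the sources used here. The authors deposited estimated counts per gene, not scaled for library size, which are whole numbers and were used unrounded. The authors also deposited FPKM, in which each count of 0 is listed at 0.0001 and is given here as 0. The table holds no comparison columns. Of 58552 identifiers shared with the GENCODE annotation, 81.2% had identical coordinates there. Of the 8 members, 3 did, and the spans and gaps given here are those of the deposited coordinates.

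Genes that averaged 0.1 FPKM or more were fitted with edgeR 4.0.16 (R 4.3.3; TMM, glmQLFit, glmQLFTest, group as the only term). A gene was called with a Benjamini-Hochberg adjusted p under 0.05 over all genes tested. The standard error of a log2 fold change was taken from its ratio to the root of the F statistic. Exact permutation of 3 libraries against 3 gives no two-sided p smaller than 0.1 and was not used. Alternatives were RLE factors, DESeq2 1.42.0, limma 3.58.1 on log2(FPKM + 0.1), log2(FPKM + 1) and log2(FPKM + 0.01), a minimum of 1 FPKM, no minimum, counts divided by 4, the replicate number as a block, and each library left out in turn.

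The members and lists were chosen with earlier results of these data known. Named were all members, of each list up to 5 genes that averaged 1 FPKM or more and had the smallest p-values, any gene called against the direction of its list, the 3 nearest profiles of each member, and genes that overlap or lie within 5000 bases of a member. Genes outside this rule, such as CEBPB, EGR1, INHA, INHBC, AMH, KCP, GFRAL, RET and family members at or near 0, were named to complete a list and after their values had been seen. Values of a few listed genes are not reported here.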

Additional observations from a re-analysis of the deposited data

How the results depend on the processing

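The fitted levels of GDF15, INHBE and BMP2 were lower in OX-LDL under every alternative run. The members were chosen by these values, so this describes the fits and is no independent evidence. At an adjusted p under 0.05, 2991 genes were called, against 4430 with DESeq2, 1636 with the replicate block and 1161 (without Control replicate 2) to 2943 with a library left out. With a fold change beyond 2 as well, 762 were called, against 283 for limma on log2(FPKM + 1), 503 at a minimum of 1 FPKM and 401 to 801 (without Control replicate 2 and OX-LDL replicate 2) with a library left out. Limma on log2(FPKM + 1) shrank the log2 fold changes, to -2.82 for GDF15, -4.45 for INHBE and -0.98 for BMP2. The pathway lists gave 22 calls, against 30 with DESeq2, 18 with the replicate block and 16 to 24 with a library left out. The replicate numbers gave no sign of pairing (correlations of -0.0846, -0.0312 and -0.0024 between deviations of the same number, and -0.0702 to 0.1038 between different numbers). Whether cultures were paired by number is not given in the labels, and these values cannot settle it. Of 40 named genes outside the members, 21 were called, 16 of them with any library left out. Over 240 values with a library left out, 22 lost and 4 gained a call, and over 358 under other alternatives, 7 lost and 18 gained a call, with no change of sign in a call. NBL1 lost its call under limma with any pseudocount (adjusted p = 0.0515 to 0.0532) and under the replicate block (0.0761), as did GREM1 (0.0511), ID2 (0.0511) and ACVR1 (0.0657) under the block. The causes were not tested. FST stayed within the 12-count limit in all 6 libraries, and INHBB exceeded it in Control replicate 1 alone, with 16 counts. Both averaged under 0.1 FPKM, so their changes are undetermined.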

Other observations

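INHBE lies in a gene-dense stretch of chromosome 12, and the genes around it were examined after the fall of GLI1 had been seen. Of the 9 genes tested within 100 kb on either side of INHBE, 5 were called, each of them lower, by edgeR's quasi-likelihood test with Benjamini-Hochberg adjustment. Over all genes tested, 15.3% were called, 7.42% as lower. The 5 genes near INHBE were GLI1, R3HDM2, MARS, DDIT3 and MBD6, where MARS is the cytosolic methionyl-tRNA synthetase and R3HDM2 an RNA-binding protein. MARS was at 37.5, 40.5 and 36.5 FPKM in Control and at 15.7, 14.0 and 14.8 FPKM in OX-LDL and fell by 1.33 on the log2 scale (adjusted p = 0.000381). MBD6 was at 8.36, 8.96 and 8.03 FPKM in Control and at 2.95, 3.75 and 3.36 FPKM in OX-LDL (adjusted p = 0.00181), and R3HDM2 fell by 0.74 on the log2 scale (adjusted p = 0.0200). ARHGAP9 (log2 fold change 0.47, adjusted p = 0.460), KIF5A (-0.0029, adjusted p = 0.994), DCTN2 (-0.17, adjusted p = 0.324) and MIR616 (-1.23, adjusted p = 0.0734), which lie in the same stretch, were not called. DDIT3 overlaps MARS, MBD6 and MIR616, and whether they share counts was not tested.

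Around GDF15, 0 of the 7 genes tested within the same distance were called by edgeR, 3 had an unadjusted p under 0.05 and DESeq2 called 1. Around FSTL3, edgeR called 1 of 8 genes, which was higher in OX-LDL, and around BMP4 it called 0 of 1, a gene with an unadjusted p under 0.05 that DESeq2 called. INHBA and BMP2 had no tested gene so near. The stretch around INHBE was chosen because of its values, so these counts are a description.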
